A study of Danio rerio with 7 samples.

Results

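The genes described here are 9 zebrafish enzymes that build and lengthen fatty acids: *fasn* and *acaca*, which make them, *scd*, which desaturates them, and the elongases *elovl1a*, *elovl1b*, *elovl5*, *elovl6*, *elovl7a* and *elovl7b*. They were chosen by name, because *elovl6* and *elovl1a* had been seen to differ in opposite directions in the melanocytic melanoma cells of the single-cell library, and the other members belong to the same pathway. The values of the single-cell states therefore chose the genes and are given as a description with no test. The reason for the choice names no bulk value, but earlier results of these data were known when it was made. All 9 genes have a row among the 20141 genes of the single-cell table, and 8 of the 9 have a row among the 20402 genes of the bulk table, where *elovl7b* has none.

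Melanomas were raised by TEAZ, the electroporation of plasmids into the skin of adult zebrafish. All fish carried *casper* (*mitfa*-/-, *mpv17*-/-), *mitfa*:BRAFV600E and *p53*-/-, and received MinicoopR-tdT, *mitfa*:Cas9, U6:sgptena, U6:sgptenb and Tol2 below the dorsal fin. The guides against the *pten* genes are thus shared by every sample, and the loss of these genes was not measured here. For the bulk libraries the plasmid mix also held U6:sgdgat1a (sgDGAT1a, 3 libraries) or the non-targeting guide U6:sgNT (sgNT, 3 libraries), and tdTomato+ cells were sorted from the tumors. Cas9 was driven by the *mitfa* promoter and the study found unedited beside edited cells in the sgDGAT1a tumors, so these libraries are mixtures. The single-cell library pooled tumor and adjacent tissue of 6 fish of both sexes without the *dgat1a* guide into 1 droplet reaction. It holds 3968 cells that the deposited annotation divides into 5 melanoma states (melanocytic 579, stressed 853, proliferative 333, invasive 333 and inflammatory 580 cells) and 1290 cells of the tumor microenvironment (TME). It is 1 library, so no difference between states has a replicate.

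Fatty acid synthesis starts when acetyl-CoA carboxylase (*acaca*) turns acetyl-CoA into malonyl-CoA, from which fatty acid synthase (*fasn*) builds palmitate. In the endoplasmic reticulum the ELOVL enzymes catalyse the first and rate-limiting step of each round of elongation, and stearoyl-CoA desaturase (*scd*) introduces a double bond. In mammals, ELOVL6 lengthens palmitate to stearate, ELOVL1 and ELOVL7 extend saturated and monounsaturated chains to very long ones, and ELOVL5 acts on polyunsaturated chains.

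Single-cell levels are mean corrected counts per cell, that is, counts of unique molecular identifiers (UMIs) which the authors brought to a common depth. Each state is set against the other 4 melanoma states by a log2 ratio, the share of all corrected counts that a gene takes in the state over its share in the other 4 states, and the brackets after it give a 95% counting interval (from the split of the gene's counts between the 2 sides). The interval treats corrected counts as if they were molecules and holds no variation between fish. Before the correction the states had medians of 9768 (melanocytic), 10341 (stressed), 15141 (proliferative), 7979 (invasive) and 8546 (inflammatory) raw UMIs per cell, and the TME had 5165.5. Because the correction adds counts to shallow cells, shares of cells above 0 leave out cells under 2000 raw UMIs, with exact 95% Clopper-Pearson intervals that cover counting error only.

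Pigment genes describe the melanocytic label, and the study itself characterized this state by such genes, so their levels are no independent check. *pmela* averaged 41.7, *tyrp1b* 23.0 and *dct* 0.926 counts per cell in melanocytic cells, each above its mean in every other group. *tyrp1a*, *tyr*, *oca2* and *slc24a5* were also highest there. *mitfa* was higher in stressed (6.17) than in melanocytic cells (5.06), and *sox10* lay between 2.71 and 3.55 in all 5 melanoma states. The xanthophore marker *gch2* was highest in melanocytic cells (5.76), whereas *pax7a*, of the same list, was highest in inflammatory cells (0.303). The iridophore marker *pnp4a* stood at 4.32 in melanocytic and 6.98 in inflammatory cells. *elovl6* had its highest level in the melanocytic cells. It averaged 0.454 corrected counts per cell in melanocytic cells and 0.105 in the other 4 melanoma states, a log2 ratio of 2.14 (1.88 to 2.41). Among the other states the level was 0.155 in stressed, 0.129 in invasive, 0.0901 in proliferative and 0.0276 in inflammatory cells, and it was 0.0674 in the TME. The invasive level lay close to those of the stressed and the proliferative cells, whereas the inflammatory cells were lowest, with a log2 ratio of -2.96 (-3.82 to -2.29) against the other 4 states.

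**Figure D1:**
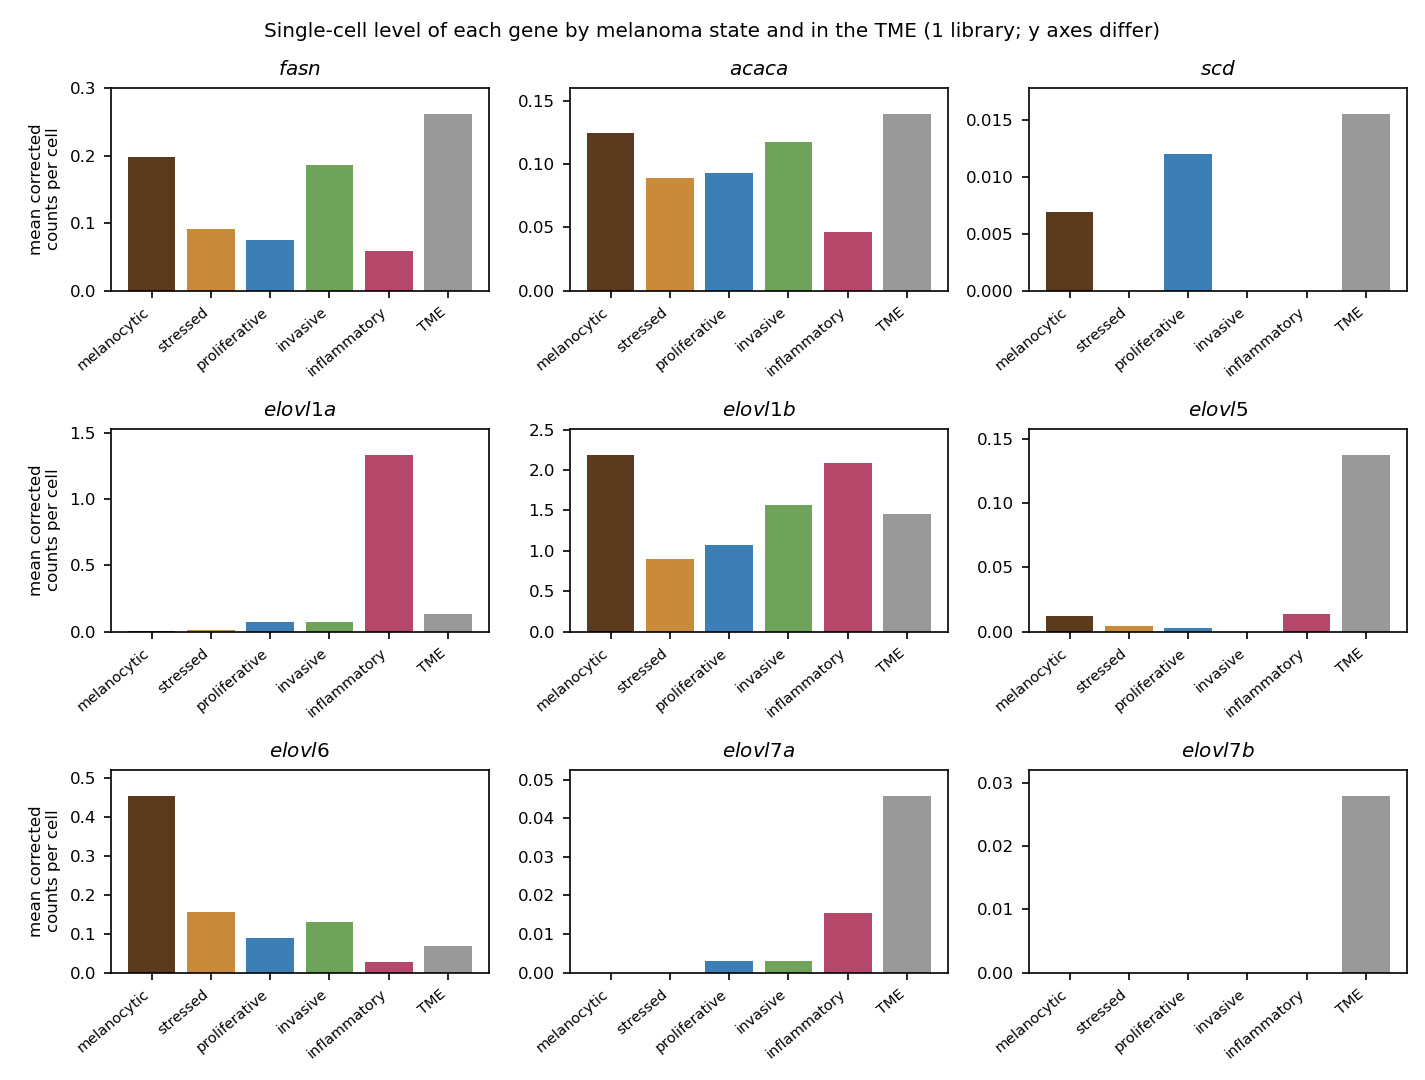
Mean corrected counts per cell of each of the 9 genes (y axes differ) in the 5 melanoma states and the TME; bars are means over all cells of a group in 1 library. *elovl6* is highest in melanocytic cells (0.454), *elovl1a* in inflammatory cells (1.33), and *fasn*, *acaca*, *scd*, *elovl5*, *elovl7a* and *elovl7b* in the TME.

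The share of cells told the same order at its ends. Of 486 melanocytic cells with at least 2000 raw UMIs, 155 had *elovl6* above 0 (31.9%, 27.8 to 36.2), against 10.8% (8.78 to 13.1) in stressed, 7.10% (4.55 to 10.5) in proliferative, 7.10% (4.50 to 10.5) in invasive and 2.37% (1.27 to 4.01) in inflammatory cells. The stressed interval overlaps those of the proliferative and invasive cells, and the TME, a mixture, stood at 5.28% (3.96 to 6.89). When cells were thinned to 7095 corrected counts, 29.8% of melanocytic and 2.29% of inflammatory cells remained above 0. The level was spread over many cells: the 10 highest of the 579 melanocytic cells held 19.8% of the *elovl6* counts, and no cell exceeded 9.

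*elovl1a* was found, among the melanoma cells, mostly in the inflammatory state. It averaged 1.33 corrected counts per cell in inflammatory cells and 0.0291 in the other 4 melanoma states, a log2 ratio of 5.52 (5.15 to 5.93). The next levels were 0.0751 in proliferative and 0.0721 in invasive cells, which cannot be told apart, then 0.0129 in stressed cells. In the 579 melanocytic cells there was 1 count in all, a mean of 0.00173 against 0.397 in the other 4 states, which gives a log2 ratio of -7.22 (-13.11 to -5.33).

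The low melanocytic value of *elovl1a* rested in large part on what it was compared with, since 773 of its 834 counts in melanoma cells came from inflammatory cells. With the inflammatory cells left out, a comparison added after seeing the data, the melanocytic log2 ratio was -3.90 and the stressed one -1.62, whereas the ratios of the proliferative and invasive cells, -2.21 and -2.20 against all 4 states, became 1.85 and 1.82. The melanocytic log2 ratio of *elovl6* was 1.79 in the same comparison.

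**Figure D2:**
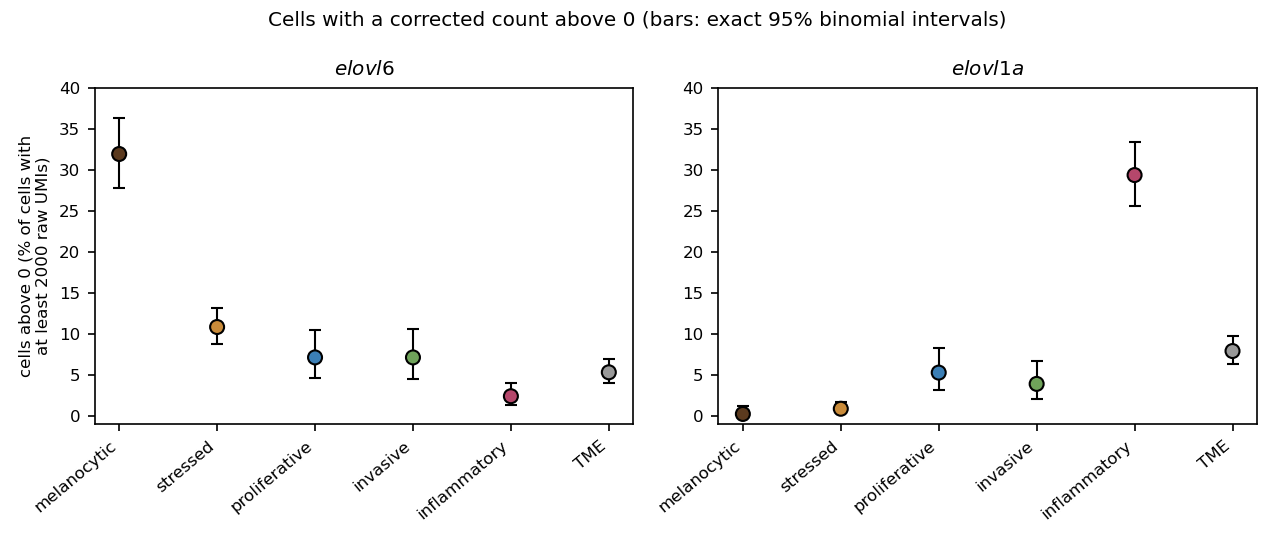
Percent of cells with a corrected count above 0 for *elovl6* (left) and *elovl1a* (right), among cells with at least 2000 raw UMIs of each melanoma state and the TME; bars are exact 95% binomial intervals. The melanocytic cells are highest for *elovl6* (31.9%) and lowest for *elovl1a* (0.206%), and the inflammatory cells are lowest for *elovl6* (2.37%) and highest for *elovl1a* (29.3%).

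Within the inflammatory state *elovl1a* was unevenly spread. The gene was above 0 in 161 of 549 cells with at least 2000 raw UMIs (29.3%, 25.5 to 33.3), against 1 of 486 melanocytic cells (0.206%, 0.00521 to 1.14), 0.840% of stressed, 3.87% of invasive and 5.25% of proliferative cells. The share in the TME was 7.88% (6.26 to 9.76). The 3 highest inflammatory cells held 69, 64 and 55 counts and the 10 highest held 40.6% of all, and without the 3 highest cells of each state the log2 ratio was 5.99. Across the 549 inflammatory cells the genes with the highest Pearson r to *elovl1a* on the log scale were *vat1* (0.52), *si:dkeyp-66d1.7* (0.50) and *apodb* (0.50), while r with the raw UMI total was 0.07. The cells with *elovl1a* averaged 3.66 counts of *vat1* and 4.01 of *apodb*, an apolipoprotein D gene, and those without it averaged 0.771 and 0.0335. Both sets carried the pigment cell regulator *sox10*, at 3.71 and 3.03. The cells share 1 library, so these correlations are a description. All 4 iridophore markers were also highest in the inflammatory cells (*pnp4a* 6.98, *tfec* 1.20, *ltk* 0.293 and *alk* 0.0138 counts per cell), with *pnp4a* at 7.02 in cells with *elovl1a* and 7.23 in cells without it, and *ltk* at 0.522 and 0.222. Their part in the level of *elovl1a* was not tested.

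*elovl1b*, the other zebrafish copy of ELOVL1, was found in most cells of every state, and its levels spanned the smallest fold range of the 5 members with enough counts for a ratio. It averaged 2.19 counts in melanocytic, 2.09 in inflammatory, 1.56 in invasive, 1.08 in proliferative and 0.893 in stressed cells, and 1.46 in the TME. The log2 ratios were 0.72 (0.62 to 0.82) in melanocytic cells and 0.61 (0.51 to 0.70) in inflammatory cells, whose levels are close, and -1.07 (-1.19 to -0.96) in stressed cells. It was above 0 in 75.3% (71.2 to 79.1) of melanocytic and 77.0% (73.3 to 80.5) of inflammatory cells with at least 2000 raw UMIs, and 51.7% (48.3 to 55.2) of stressed cells. Below that depth every cell had a value above 0 after the correction, so no share of shallow cells is read for this gene.

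Within the melanocytic state *elovl1b* went with the pigment enzyme gene *tyrp1b*. Its Pearson r with *tyrp1b* was 0.51 over 486 cells, the highest of 3627 genes, and the r with *tyrp1a* was 0.42. The 323 melanocytic cells with *tyrp1b* above 0 averaged 2.83 counts of *elovl1b* and the 163 cells with *tyrp1b* at 0 averaged 1.06, with medians of 12917 and 11037 raw UMIs. *elovl6* did not share this, at 0.508 in cells with *tyrp1b* and 0.540 in cells without it, and its own highest r in melanocytic cells was 0.30.

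The 2 enzymes of de novo synthesis followed *elovl6* in part. *fasn* averaged 0.199 in melanocytic and 0.186 in invasive cells, levels that cannot be told apart, then 0.0914 in stressed, 0.0751 in proliferative and 0.0586 in inflammatory cells, and it was highest in the TME, at 0.262. Its log2 ratios were 1.105 (0.76 to 1.44) in melanocytic cells, 0.83 (0.40 to 1.23) in invasive cells and -1.16 (-1.74 to -0.66) in inflammatory cells. *acaca* averaged 0.124 in melanocytic, 0.117 in invasive, 0.0931 in proliferative and 0.0891 in stressed cells, which overlap within counting error. It averaged 0.140 in the TME and 0.0466 in inflammatory cells. Its log2 ratio against the other 4 states was 0.63 (0.21 to 1.03) in melanocytic and -1.13 (-1.78 to -0.57) in inflammatory cells. For *fasn* the share of inflammatory cells above 0 (6.19%, 4.33 to 8.55) overlapped those of proliferative (7.10%, 4.55 to 10.5) and stressed cells (7.80%, 6.07 to 9.84).

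The remaining 4 members were near the floor in melanoma cells. *scd* had 8 counts over the 2678 melanoma cells, 4 each in melanocytic and proliferative cells, *elovl5* had 20, *elovl7a* had 11, of which 9 were in inflammatory cells, and *elovl7b* had 0. No ratio is read from these counts.

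**Figure D3:**
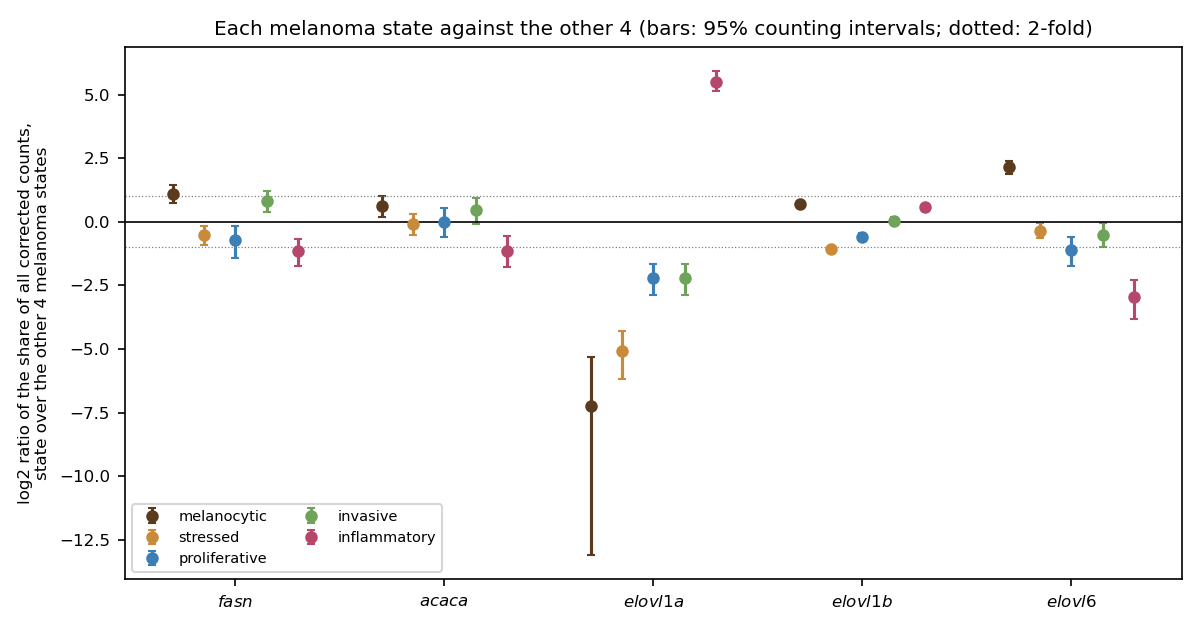
Log2 ratio of each melanoma state to the other 4 (y axis) for the 5 genes that reached 50 corrected counts in melanoma cells; points are states, bars are 95% counting intervals, dotted lines mark 2-fold. *elovl1a* spans -7.22 (melanocytic) to 5.52 (inflammatory), and *elovl6* spans -2.96 (inflammatory) to 2.14 (melanocytic).

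Counted over the 5 members with at least 50 corrected counts in melanoma cells, 3 were beyond 2-fold in melanocytic cells (*elovl6* and *fasn* higher, *elovl1a* lower), where 23.2% of 11776 genes were. In inflammatory cells 4 were (*elovl1a* higher, *elovl6*, *fasn* and *acaca* lower), where 23.0% of all genes were. In stressed cells 2 were (background 12.0%), in proliferative cells 2 (16.3%) and in invasive cells 1 (19.2%). The members were chosen on these states, so nothing is read from the counts.

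Most other genes of the pathway had a log2 ratio below 0 in melanocytic cells, as had most of all genes, whose median was below 0. The list holds 43 genes, the partner enzymes of the elongation cycle, other elongases and desaturases, suppliers of acetyl-CoA, mitochondrial synthesis enzymes and regulators, and 23 of them had at least 50 counts in melanoma cells. In melanocytic cells 6 of the 23 had a log2 ratio above 0 and 17 below it, with a median of -0.68, against -0.26 over all genes. Among those with at least 200 counts the lowest were *scdb*, a second stearoyl-CoA desaturase (-2.17, 0.0328 counts per cell against 0.155 in the other 4 states), and *insig1*, which retains the SREBP activating complex in the endoplasmic reticulum when sterols are plentiful (-2.08, 0.0604 against 0.266). The highest were *hsd17b12b*, the ketoacyl-CoA reductase that follows the ELOVL step (0.59, 0.40 to 0.77), and *aclya*, an ATP citrate lyase that supplies acetyl-CoA (0.48, 0.11 to 0.82). The interval of the dehydratase *hacd2* also lay above 0 (0.43, 0.28 to 0.57).

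In the other states the list had medians between -0.12 and 0.11. The elongase *elovl8b*, with 131 counts in melanoma cells, had the highest ratio of the 23 genes in inflammatory cells (2.79, 0.148 counts per cell against 0.0214) and the lowest in stressed (-2.07) and invasive cells (-1.21). The elongase *elovl4a*, with 163 counts, was highest in stressed (1.403) and lowest in proliferative cells (-1.41). The genes named next in each state are the extremes among those with at least 200 counts. In invasive cells *mid1ip1b*, whose mammalian relative promotes the assembly of active acetyl-CoA carboxylase, had the highest ratio (2.04, 1.02 counts per cell against 0.254), followed by *insig1* (1.505), and *slc25a1a*, a mitochondrial citrate carrier (-0.99), and *acss2*, an acetyl-CoA synthetase (-0.17), were lowest. In inflammatory cells *mid1ip1l*, a further gene of the *mid1ip1* family, was highest (1.61, 0.633 against 0.209), then *slc25a1a* (0.83), and *hsd17b12b* (-1.003) and the mitochondrial enoyl reductase *mecr* (-0.93) were lowest. In stressed cells *mecr* (0.88) and *insig1* (0.75) were highest and *mid1ip1l* (-1.05) and *mid1ip1b* (-0.49) lowest. In proliferative cells *tecrb*, the enoyl reductase that closes the elongation cycle (0.71), and *slc25a1a* (0.66) were highest and *insig1* (-1.29) and *mid1ip1l* (-1.22) lowest.

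The genes whose levels over the 6 annotated groups were most like *elovl6*, by Pearson r of log2(mean + 0.01) among 9147 genes, were *pdxdc1* (0.99), *myo18aa* (0.97), *capzb* (0.97), *arl4d* (0.96) and *inka1b* (0.96). Those most like *elovl1a* were *pax7a* (0.99), *cd40* (0.97), *akap12b* (0.97), *rnd1b* (0.97) and *parp9* (0.96). Within the inflammatory cells with at least 2000 raw UMIs, however, *pax7a* was lower in cells with *elovl1a* (0.186) than in cells without it (0.340). An r over 6 groups of 1 library describes a shared order of levels only. *dgat1a*, the gene targeted in the bulk libraries, was also highest in melanocytic cells, at 0.171 counts per cell against 0.0310 in the other 4 states.

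The TME held a different set of members. Its cells were divided by 3 genes, with limits chosen after seeing the data, into 317 cells with at least 10 corrected counts of the keratin *krt5*, 549 of the rest with at least 10 of *cd74a*, an antigen presentation gene, 222 of the rest with at least 10 of the collagen gene *col1a2*, and 202 others. These are ranges and not cell types. Between 5 and 19 counts, near the limit, lay 62 TME cells for *krt5*, 305 for *cd74a* and 129 for *col1a2*.

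Within the TME the *krt5* cells held all 59 counts of *elovl7a*, all 36 of *elovl7b* and all 20 of *scd*. *elovl7a* was above 0 in 11.9% (8.25 to 16.3) of *krt5* cells with at least 2000 raw UMIs and in 0 of 460 *cd74a* cells, an interval up to 0.799% that limits cells with a count and not cells expressing the gene. Of the *col1a2* and other TME cells only 136 and 99 reached this depth. For *elovl7b* the share of *krt5* cells was 10.0% (6.69 to 14.2), and these cells held every count of this gene in the library. The median depth was 7649 raw UMIs in *krt5*, 6882 in *cd74a*, 2781 in *col1a2* and 1900 in the other cells.

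**Figure D4:**
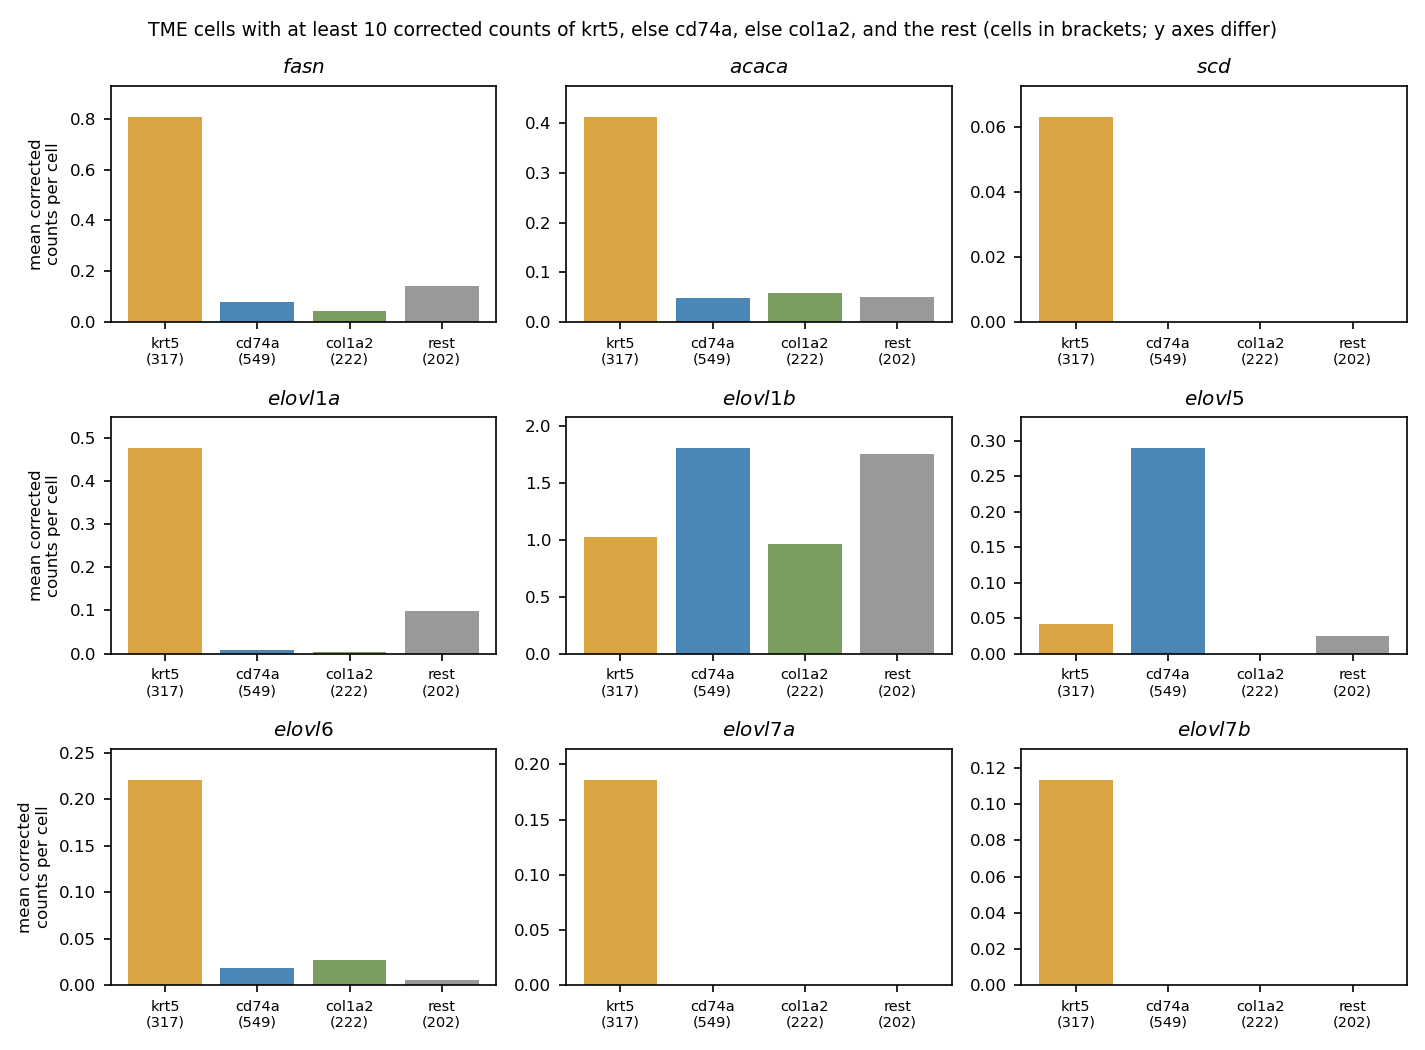
Mean corrected counts per cell of the 9 genes (y axes differ) in TME cells with at least 10 counts of *krt5*, else *cd74a*, else *col1a2*, and in the other TME cells; cell numbers in brackets. All but *elovl1b* and *elovl5* are highest in the *krt5* cells, and *elovl5* is highest in the *cd74a* cells (0.290).

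*fasn* averaged 0.808 in *krt5* cells, above its melanocytic level of 0.199, and 0.0783 in *cd74a* cells. *acaca* averaged 0.413 and 0.0474 in the same cells, *elovl1a* 0.476 and 0.00729, and *elovl6* 0.221 and 0.0182. Across 965 TME cells with at least 2000 raw UMIs the genes with the highest Pearson r to *fasn* were *hmgcra* (0.60), *hmgcs1* (0.58) and *msmo1* (0.58), all enzymes of sterol synthesis, and *hmgcra* averaged 2.07 in *krt5* cells. *elovl5* instead averaged 0.290 in *cd74a* cells against 0.0410 in *krt5* cells, and the *cd74a* cells held 80.7% of its counts in the whole library. *elovl1b* was present in all 4 ranges, between 0.959 and 1.81. In cells with at least 2000 raw UMIs it lay between 0.779 (*col1a2* cells) and 1.89 (other cells).

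In the bulk libraries the question was how the tdTomato+ cells of tumors with the *dgat1a* guide differed from those with sgNT. *dgat1a*, the target of the guide, is a diacylglycerol acyltransferase that makes triglycerides. It measured 216, 231 and 240 normalized counts in sgDGAT1a 1 to 3, against 799, 747 and 405 in sgNT 1 to 3. It was lower in every sgDGAT1a library (log2 fold change -1.44, SE 0.318, adjusted p = 0.0265). In the single cells *dgat1a* averaged 0.171 counts per cell in melanocytic cells and 0.000775 in the TME. Its bulk level can thus depend on the cell mixture as well as on the guide, and the part of each was not tested. Values are normalized counts as deposited, and log2 fold changes, on the log2(normalized count + 1) scale, and adjusted p-values are from limma with Benjamini-Hochberg adjustment over 16969 genes. A gene was called at adjusted p below 0.05 with a change beyond 1 on the log2 scale in either direction.

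Of the 8 members tested, 4 were called, all higher in sgDGAT1a (*fasn*, *elovl1a*, *elovl6* and *elovl7a*), where 12.0% of all genes were called, 8.70% higher and 3.31% lower. The groups did not overlap for 5 of the 8, all higher, against 21.1% of all genes that were higher without overlap, and no member was lower without overlap, against 15.9%. The median log2 fold change was 0.90 over the members and 0.02 over all genes. At an unadjusted p below 0.05 there were 5 members, all of them higher, and 5421 genes in all.

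*elovl7a* (ENSDARG00000069279) had the largest change of the members. It measured 328, 446 and 446 normalized counts in sgDGAT1a and 12.2, 14.1 and 99.0 in sgNT. The sgDGAT1a libraries were close to each other, and sgNT 3 lay far above the other two sgNT libraries but below every sgDGAT1a library. The mean was 407 ± 68.2 in sgDGAT1a and 41.8 ± 49.6 in sgNT (SD, n = 3 each), with a log2 fold change of 3.89 (SE 0.750, adjusted p = 0.0189).

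*elovl1a* (ENSDARG00000099960) measured 2736, 3064 and 996 normalized counts in sgDGAT1a and 407, 429 and 552 in sgNT. Libraries 1 and 2 of sgDGAT1a were high and library 3 was between them and the sgNT libraries. The log2 fold change was 2.14 (SE 0.417, adjusted p = 0.0191).

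*elovl6* (ENSDARG00000004402) measured 632, 639 and 899 normalized counts in sgDGAT1a and 266, 435 and 249.9 in sgNT, with sgNT 2 nearest to the sgDGAT1a libraries. The log2 fold change was 1.21 (SE 0.303, adjusted p = 0.0371). *elovl6* and *elovl1a*, which differed in opposite directions in the melanocytic cells, were thus both higher in the sgDGAT1a libraries.

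*fasn* (ENSDARG00000087657) measured 1025, 691 and 1013 normalized counts in sgDGAT1a and 449, 314 and 510 in sgNT, and its log2 fold change was 1.104 (SE 0.283, adjusted p = 0.0402). *acaca* (ENSDARG00000078512), the step before it, measured 621, 485 and 749 in sgDGAT1a and 411, 540 and 444 in sgNT. These overlap, and its log2 fold change of 0.40 (SE 0.259, adjusted p = 0.331) was not called.

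**Figure D5:**
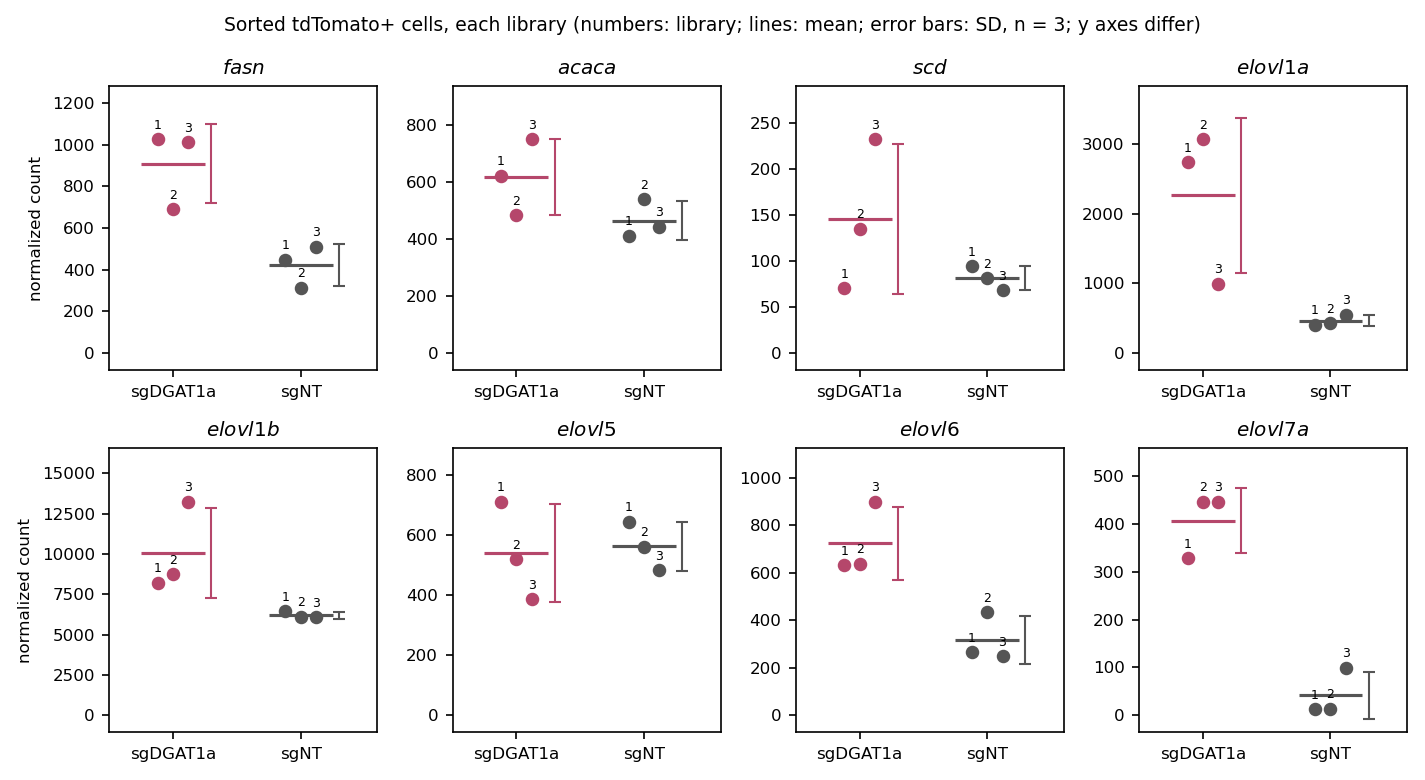
Normalized counts (y axes differ) of the 8 members with a row in the bulk table in each sgDGAT1a and sgNT library; numbers name the library, lines are means and error bars SD (n = 3 each). The groups do not overlap for *fasn*, *elovl1a*, *elovl1b*, *elovl6* and *elovl7a*, and sgNT 3 stands above sgNT 1 and 2 for *elovl7a*.

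*elovl1b* (ENSDARG00000103735) measured 8212, 8725 and 13234 normalized counts in sgDGAT1a and 6442, 6096 and 6062 in sgNT. Every sgDGAT1a library was above every sgNT library, but the log2 fold change of 0.66 (SE 0.240, adjusted p = 0.0993) was not called. *scd* (ENSDARG00000033662) measured 70.4, 135 and 232 in sgDGAT1a and 94.2, 81.1 and 67.9 in sgNT, which overlap (log2 fold change 0.69, SE 0.498, adjusted p = 0.381). *elovl5* (ENSDARG00000004979) measured 712, 520 and 387 in sgDGAT1a and 644, 562 and 483 in sgNT (log2 fold change -0.10, SE 0.287, adjusted p = 0.852), with no direction shared by the libraries. *elovl1a* and *elovl1b*, and *elovl7a* and *elovl7b*, are pairs of related copies, and how reads that match both copies were divided is not given in the sources used here.

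The calls depended on single libraries. Under quantile normalization 1220 genes were higher and 793 lower (1477 and 561 as deposited) and the median of all genes was -0.12, with the direction of every member kept. With sgDGAT1a 1, sgDGAT1a 2, sgNT 1 or sgNT 2 left out, limma called 0 members, with 4 or 5 at an unadjusted p below 0.05. Without sgDGAT1a 3 it called 1 (*elovl1a*), and without sgNT 3 it called 4. The number of genes called in all, 2038 with every library, lay between 108 and 4225. The log2 fold changes kept their sign in each of these fits for the 4 called members, at 3.37 to 4.84 for *elovl7a*, 1.85 to 2.66 for *elovl1a*, 1.05 to 1.46 for *elovl6* and 0.90 to 1.29 for *fasn*. Libraries 1 and 2 of each group were more alike (r = 0.96 in both groups) than either was to library 3 (0.89 to 0.90). sgNT 3 was nearly as like the sgDGAT1a libraries (0.87 to 0.88) as it was like sgNT 1 and 2. The latter stood at 0.80 to 0.82 against the sgDGAT1a libraries. Read counts are not known, so the commonest step between low values of a library was taken as 1 read. The median squared difference between libraries 1 and 2 over its counting variance was then 6.71 in sgDGAT1a and 4.89 in sgNT. The step was poorly recovered, so these values cannot tell whether libraries 1 and 2 differed by more than counting noise. With the pair averaged to 1 sample limma called 0 of 16987 genes (2533 at an unadjusted p below 0.05). Nothing in the labels says whether the libraries came from separate fish, so the p-values measure only the spread between these samples.

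Of the 43 other genes of the pathway, 38 were tested and 4 were called, 3 higher and 1 lower, against the 12.0% called over all genes. Their median log2 fold change was 0.20. The elongase *elovl6l* measured 614, 527 and 412 normalized counts in sgDGAT1a and 22.4, 31.1 and 186 in sgNT (log2 fold change 3.30, SE 0.724, adjusted p = 0.0262). The elongase *elovl8b* measured 101, 135 and 133 in sgDGAT1a and 31.9, 19.3 and 37.4 in sgNT (2.06, SE 0.471, adjusted p = 0.0294). *mid1ip1a* measured 986, 707 and 948 in sgDGAT1a and 42.5, 61.0 and 246 in sgNT (3.32, SE 0.599, adjusted p = 0.0160).

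The gene called lower was *oxsm*, the condensing enzyme of mitochondrial fatty acid synthesis, with 273, 251 and 319 normalized counts in sgDGAT1a and 681, 584 and 538 in sgNT (log2 fold change -1.09, SE 0.246, adjusted p = 0.0280). The sterol and fatty acid synthesis regulators *srebf1* and *srebf2* had log2 fold changes of -0.01 and 0.00, neither called. None of the 6 tested partner enzymes of the elongation cycle was called by limma (1 at an unadjusted p below 0.05), nor any of the 9 tested suppliers of acetyl-CoA and NADPH (3 at an unadjusted p below 0.05). Without sgNT 3 the number of these genes called was 10 of 37 tested, and without any of the other libraries 0 to 2.

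Markers of skin and stroma moved with the groups in these sorted libraries. All 8 tested keratinocyte markers of the 9 listed were called higher (*krtt1c19e* was under 2 normalized counts throughout). Their summed level was 169244 to 254187 normalized counts in sgDGAT1a and 13856 to 87605 in sgNT, with sgNT 3 the highest of the sgNT libraries. In the single cells *krt5*, *krt91*, *tp63*, *epcam*, *cldni* and *icn2* were highest in the TME. *krt4* was instead higher in invasive melanoma cells (8.23 counts per cell) than in the TME (3.43), and *cyt1* was near the floor. All 5 fibroblast markers were called higher (91683 to 123711 against 19283 to 23074), as were the 4 tested skeletal muscle markers of 6 (6206 to 18155 against 247 to 1367), 2 of 5 erythrocyte, 2 of 5 endothelial, 2 of 3 neutrophil, 2 of 3 tested adipocyte, 1 of 4 T cell, 1 of 5 Schwann cell and 1 of 3 tested xanthophore markers. None of the 4 iridophore markers was called. None of the 7 macrophage markers was called (65883 to 87029 against 57579 to 68143). Of the 9 melanophore markers only *tyrp1b* was called (30970.2, 31432.5 and 272075 against 9882, 10323 and 5949), and *sox10* was lower in each sgDGAT1a library (8885 to 10506 against 16015 to 21143, log2 fold change -0.88) without passing the limit on its size. In bulk libraries more cells of a type and more RNA per cell cannot be told apart.

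sgNT 3, with the most keratinocyte markers among sgNT libraries, also had the most *elovl7a*, *fasn* and *elovl1a*. It had the least *elovl6*, *elovl1b*, *elovl5* and *scd*, and its *acaca* lay between those of sgNT 1 and 2. It also had the most of several other pathway genes, among them *elovl6l* and *mid1ip1a*. Others were *scdb* (821 normalized counts against 67.1 and 52.1 in sgNT 1 and 2) and *elovl4a* (217 against 52.6 and 24.0). *scdb* and *elovl4a* had 3 single-cell counts each in the TME, against 344 and 163 in melanoma cells. In the single cells the *krt5* cells held 84.3% of all counts of *elovl7a*, 71.4% of *scd*, 39.3% of *fasn*, 14.95% of *elovl1a* and 12.3% of *elovl6*, and 88.0% of *elovl6l* and 84.5% of *mid1ip1a*. *scd* overlapped between the bulk groups and was not called. Per 1000 normalized counts of the summed keratinocyte markers, *elovl7a* stood at 1.33, 2.63 and 1.75 in sgDGAT1a and 0.879, 0.867 and 1.13 in sgNT, which do not overlap, *elovl6l* at 1.62 to 3.11 in sgDGAT1a and 1.62 to 2.12 in sgNT, and *mid1ip1a* at 3.73 to 4.18 in sgDGAT1a and 2.81 to 3.74 in sgNT, which do. The lack of overlap for *elovl7a* depended on the markers summed, most of whose counts were *krt5* and *krt91*. Against *krt5* alone the groups overlapped. *elovl7a* stood at 328 beside 100376 counts of *krt5* in sgDGAT1a 1, and at 12.2 beside 3577 in sgNT 1. How many of all genes did not overlap on such a scale was not counted, so nothing is read from it. Per 1000 counts of the summed markers the other 3 called members were not higher, which follows from the divisor. The marker sum was 169244 to 254187 in sgDGAT1a and 13856 to 87605 in sgNT, so a gene with a smaller rise falls on it. Most single-cell counts of these 3 members also lay outside the *krt5* cells, so nothing is read from their values. *fasn* stood at 3.98 to 4.16 in sgDGAT1a and 5.82 to 32.4 in sgNT, lower without overlap. *elovl6* stood at 2.57 to 3.77 in sgDGAT1a and 2.85 to 26.7 in sgNT, which overlap. *elovl1a* stood at 3.92 to 18.1 in sgDGAT1a and 6.30 to 29.4 in sgNT, which also overlap. The part of skin and stroma cells in the members' changes was not tested.

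Of the 5 genes most like *elovl1a* over the single-cell groups, *akap12b* (log2 fold change 3.06), *rnd1b* (2.49) and *pax7a* (1.66) were called higher in sgDGAT1a, and *cd40* (-0.51) and *parp9* (-0.46) were not called. For *akap12b* libraries 1 and 2 of sgDGAT1a were high (2277 and 2422 normalized counts) and library 3 lower (902), against 115 to 378 in sgNT, as *elovl1a* was high in libraries 1 and 2 and lower in library 3. This order was not particular to these genes. The muscle marker *mylpfa* (5335, 6065 and 1194) and the Schwann cell marker *foxd3* (6953, 7171 and 2355) shared it in sgDGAT1a. The keratinocyte marker *tp63* was instead highest in library 3 (5018). Of the 5 most like *elovl6*, *arl4d* was called higher (1.32) and *inka1b* lower (-2.83), and *pdxdc1* (0.02), *myo18aa* (1.16) and *capzb* (0.05) were not called.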

How the data were processed

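Single cells: reads were aligned by the authors (CellRanger 6.0.2), cells under 200 genes or above 30% mitochondrial content were dropped, and SCTransform of Seurat 4.0.2 was applied. Values of the deposited matrix are counts corrected by that step, which are a score and not raw molecules (5400 to 9687 per cell). The deposited annotation gives the raw UMI counts (341 to 120384 per cell), the percent of mitochondrial UMIs and the state of each cell, and states were taken from it. To each sum 0.5 was added before the log2 ratio. Cells had been sorted against doublets before droplet loading, doublets formed in droplets were not assessed, and no doublet caller was run.

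Bulk: the authors used Salmon 1.4.0 on GRCz11 after trimming with Trimmomatic, and DESeq2 1.30.1 with default parameters. How the deposited values were scaled was not checked. The deposited normalized counts, a signal with decimals, sum to between 19.2 and 23.3 (in units of 10 to the power 6) per library. Whole reads were not recovered (between 10.2% and 41.4% of values under 15 were whole multiples of the commonest step within 0.02), so the counting error of a value is unknown; the step was 0.53 to 2.01 normalized counts. Of 20682 lines, 280 repeated an identifier and were dropped. limma 3.58.1 with a trended prior variance was fitted to log2(normalized count + 1) for genes whose mean reached 10, in R 4.3.3. Exact permutation of 3 against 3 libraries cannot go below p = 0.1. No per-sample column was left unused.

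The members and gene lists were chosen with earlier results of these data known. Named genes were all members, *dgat1a*, other pathway genes called in bulk or among the 2 highest and 2 lowest ratios of a state with at least 200 counts, and the 5 genes most like *elovl6* and *elovl1a*. Genes correlated within a state, markers and genes dividing the TME were chosen after their values were seen. ATP citrate lyase was matched as *aclya* and *aclyb*, the names in both tables. Of the list, *elovl4b*, *elovl8a* and *tecra* fell below the filter and *hacd4* and *mlxipl* have no bulk row. The fit was tested on simulated data, where 76.0% of 200 genes shifted by 3 on the log2 scale were called among 17557, with 9 unchanged genes called. Python 3.11.15, numpy 2.4.6, scipy 1.17.1, pandas 2.3.3 and matplotlib 3.10.9 were used.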

Additional observations from a re-analysis of the deposited data

How the results depend on the processing

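The count of 4 called members was the same with pseudocounts of 0.5 and 10, no filter, a mean of at least 50, median ratio rescaling and quantile normalization. It was 2 with a constant prior variance and 0 with libraries 1 and 2 averaged (4 members at an unadjusted p below 0.05 in limma). Leaving out 1 library gave 0 to 4 members, 0 to 10 other pathway genes and 108 to 4225 genes of all, and averaging libraries 1 and 2 gave 0 other pathway genes (6 at an unadjusted p below 0.05) and 0 of all. The other pathway list had 6 calls with a pseudocount of 10 and 3 with a constant prior variance. Quantile normalization moved the median of all genes to -0.12 and the split of calls to 1220 higher and 793 lower (1477 and 561 as deposited), and *elovl8b* (1.39) lost its call there, although the count of other pathway genes was again 4. *elovl5*, which was never called, ranged from -0.32 to 0.12 with 1 library left out, at 0.12 without sgDGAT1a 3 and 0.01 without sgNT 1.

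The replicate number as a block gave 1 called member (*elovl7a*), 1 other pathway gene and 482 genes of all. Same-numbered libraries did not deviate together (r of deviations -0.07, -0.05 and -0.14), so the samples share a number and no pairing was used.

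In the single cells 12 of 25 pairs of member and state were beyond 2-fold, and 10 to 12 under the alternatives. With inflammatory cells left out, added after seeing the data, the melanocytic log2 ratios were 1.79 for *elovl6* and -3.90 for *elovl1a*, and *elovl1a* turned round in proliferative (1.85) and invasive (1.82) cells. Ratios near 0 also changed sign within their counting interval, those of *acaca* in stressed and proliferative cells and of *elovl1b* in invasive cells. *elovl7b* gave no ratio, being at 0 in melanoma cells. Precision is limited by the single library without replicates, the few counts of *scd*, *elovl5*, *elovl7a* and *elovl7b*, the unknown read depth of the bulk libraries and their 3 libraries per group.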
